A study of Mus musculus with 24 samples.

Results

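The genes described here encode the subunits of the proteasome, the barrel-shaped protease of the cytosol and nucleus, together with the immunoproteasome subunits and the 11S activator. They were taken from a fixed list of 37 mouse gene symbols, and all 37 were found among the 38887 genes of the count table and passed the filter on low counts. By role the list holds 7 alpha-ring subunits of the 20S core (Psma1 to Psma7), 4 non-catalytic beta subunits (Psmb1 to Psmb4), the 3 constitutive catalytic subunits (Psmb5, Psmb6 and Psmb7), the 3 catalytic immunosubunits (Psmb8, Psmb9 and Psmb10), 6 ATPases of the 19S cap (Psmc1 to Psmc6), 11 other 19S subunits (Psmd genes) and 3 subunits of the 11S activator (Psme1, Psme2 and Psme3). The study sequenced mRNA from dendritic cells grown from mouse bone marrow. The cells were labelled IRE1 knock out (KO) or IRE1 wild type (WT), and each genotype was treated with zymosan, a yeast cell-wall particle, treated with lipopolysaccharide (LPS), the endotoxin of gram-negative bacteria, or left untreated, which gives 6 groups of 4 samples and 24 samples in all. IRE1α, encoded by Ern1, is a kinase and endoribonuclease of the endoplasmic reticulum that senses unfolded proteins and splices the Xbp1 mRNA. The labels give no dose, time, mouse age, allele or Cre driver. Nothing in them tells separate mice or cultures from repeat libraries of a culture, so the p-values measure only the spread between these samples, which may be technical.

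Proteasomes degrade proteins tagged with ubiquitin. The 19S cap recognises and unfolds the tagged protein with its ATPases, the alpha ring gates the entrance, and 3 of the beta subunits carry the cutting sites. When cells meet interferons or microbial products, the immunosubunits are built into newly made particles in place of their constitutive partners: Psmb8 (beta5i) for Psmb5 (beta5), Psmb9 (beta1i) for Psmb6 (beta1) and Psmb10 (beta2i) for Psmb7 (beta2). The resulting immunoproteasome produces more peptides with the hydrophobic or basic ends that MHC class I molecules bind, and dendritic cells are known for carrying it. Psme1 and Psme2 form the PA28 activator, which opens the core without ATP or ubiquitin.

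Levels are given as CPM, a gene's count per 1000000 counts of its library, whose total was first scaled with edgeR's TMM factors. Total counts ran between 32223256 and 46927434 per sample. The TMM factors followed the stimulus, at 1.14 to 1.19 in untreated samples and 0.880 to 0.983 in stimulated samples. This scaling therefore lowers levels in untreated samples against those in stimulated ones. Of 38887 genes, 14188 were tested. Of 10 conventional dendritic cell markers checked, 9 passed the filter on low counts. Cd209a reached at most 0.354 CPM and was at 0 in most stimulated WT samples. The 10 summed to 8609 to 9134 CPM in KO and 7345 to 7656 CPM in WT cells with zymosan, to 7821 to 8334 CPM in KO and 7171 to 7784 CPM in WT cells with LPS, and to 7901 to 8133 CPM in KO and 6856 to 7099 CPM in WT untreated cells, so every KO sum was above every WT sum of its condition. Abundant genes such as Cd74 and Itgam carry these sums. In untreated cells 4 of the 9 tested were higher in KO and 1 was lower. Flt3 went the other way from the sum, at 0.881 to 0.972 CPM in KO and 1.90 to 2.21 CPM in WT untreated cells. Ern1 itself was higher in samples labelled KO than in WT samples in every condition, at 48.2 to 54.6 CPM in KO and 40.2 to 43.3 CPM in WT untreated cells; a count over the whole gene does not show whether exons were deleted, so it does not check the genotype label. Over all groups together, replicates 1 and 2, and replicates 3 and 4, of a group tended to be closer to each other than other pairs. The median root mean square log2 difference was 0.343 over 12 such pairs (0.319 to 0.388), against 0.390 over 24 others (0.355 to 0.446), so the ranges overlapped. Calls between genotypes that end when these pairs are summed are named as such. Markers of other cell types moved with the genotype label: the 6 eosinophil markers summed to 20.2 to 31.0 CPM over all KO samples and to 666 to 1118 CPM over all WT samples. In bulk RNA, fewer cells of a type and less RNA per cell cannot be told apart.

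The summed level of all 37 mRNAs was lowest in untreated cells. It averaged 6278 ± 83.0 CPM in KO and 6585 ± 223 CPM in WT cells with zymosan, 7544 ± 319 CPM in KO and 7945 ± 83.4 CPM in WT cells with LPS, and 4262 ± 45.8 CPM in KO and 4199 ± 114 CPM in WT untreated cells (SD, n = 4 each). Levels of different genes can be compared only per length. On the scale of CPM per kilobase of merged exons, Psmb9 stood at 76.2 in WT cells with LPS, where it ranked 13 of 37, and at 13.9 in untreated WT cells, where it ranked 35. Psme2 ranked 1 in WT cells with LPS, at 492, by both measures of length used. Ranks depend on which transcripts a gene uses: per kilobase of the longest transcript, Psmb8 stood at 276 in LPS-treated WT cells, above Psmb5 at 172, while per kilobase of merged exons Psmb8 stood at 156, below Psmb5 at 172.

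Nearly every member rose with either stimulus in WT cells, and the immunosubunits with Psme1 and Psme2 rose most. With zymosan, 35 of 37 members were higher than in untreated cells, 1 was lower (Psme3) and 1 was not called (Psma1), at an adjusted p under 0.05 in edgeR's quasi-likelihood test. In the same comparison 70.2% of all genes tested were called, 34.3% higher and 35.9% lower. With LPS the counts for members were again 35 higher, 1 lower (Psme3) and 1 not called (Psma1), with 75.6% of all genes called, 35.9% higher and 39.7% lower. The median log2 fold change of the members was 0.31 with zymosan, against -0.014 over all genes tested, and 0.46 with LPS, against -0.042. Leaving out the immunosubunits, Psme1 and Psme2, 30 of the other 32 members were higher with each stimulus, with medians of 0.30 for zymosan and 0.42 for LPS. In WT cells the TMM factors were 1.16 to 1.19 untreated, 0.906 to 0.928 with zymosan and 0.880 to 0.916 with LPS. Small rises, and the counts of members that rose, therefore depend on this scaling. Besides DESeq2's size factors no other scaling was tried. More than 2-fold higher were 6 members with zymosan (Psma5, Psmb8, Psmb9, Psmb10, Psme1 and Psme2), where 9.75% of all genes tested passed that rule, and 9 members with LPS (the same 6 with Psma4, Psma6 and Psmb6), where 12.4% did. The macrophage marker list moved with the stimuli as well: with zymosan 4 of its 8 genes were higher and 3 lower, with LPS 5 were higher and 2 lower, and its summed level was 3128 to 3293 CPM with zymosan and 2989 to 3168 CPM with LPS, against 2157 to 2335 CPM in untreated WT cells. A few genes weigh heavily on this sum. Cd14 stood at 1068 to 1225 CPM with zymosan and 819 to 860 CPM with LPS, against 235 to 311 CPM untreated. Fcgr1 rose as well, to 486 to 540 CPM with LPS, against 59.5 to 78.3 CPM untreated. Csf1r fell, to 706 to 786 CPM with zymosan and 558.5 to 597 CPM with LPS, against 914 to 1003 CPM untreated. The part of the macrophage marker changes in the members' changes was not tested.

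**Figure D1:**
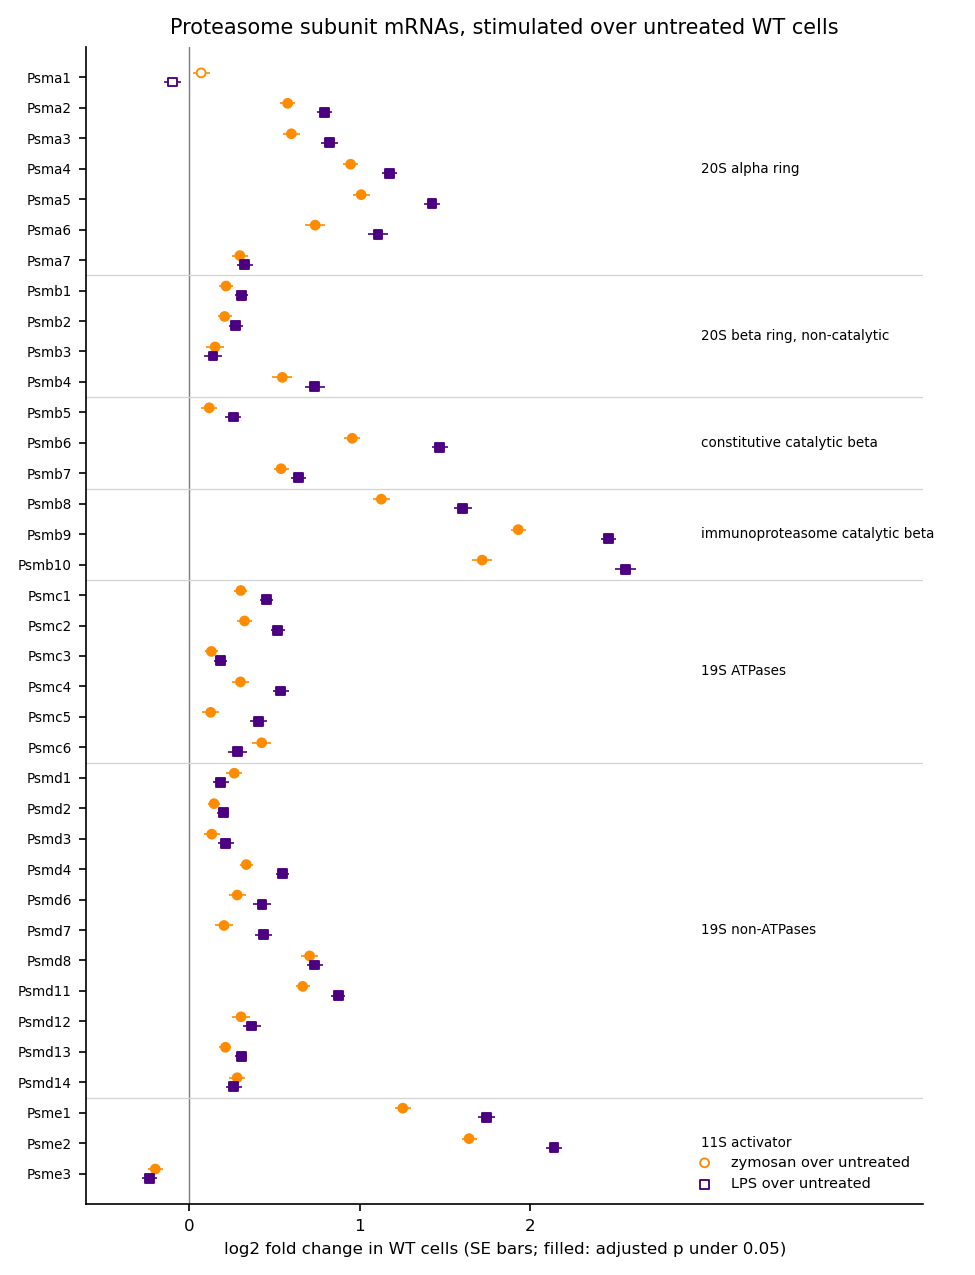
Log2 fold change of each of the 37 members in WT cells, zymosan over untreated (orange circles) and LPS over untreated (purple squares), with SE bars from the edgeR fit to 24 samples; filled symbols have an adjusted p under 0.05. Psmb9 and Psmb10 lie farthest to the right at 2.46 and 2.56 with LPS, and Psme3 lies left of 0 with both stimuli.

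The catalytic immunosubunits rose by more than 2-fold with both stimuli. Psmb8 stood at 371, 412, 355 and 377 CPM in WT cells with zymosan and 519, 525, 504 and 561 CPM with LPS, against 159.8, 178, 179 and 177 CPM untreated. The groups did not overlap, and every LPS sample lay above every zymosan sample. Its log2 fold change was 1.13 with zymosan (SE 0.05, 2.18-fold, edgeR adjusted p = 3.52e-16) and 1.60 with LPS (SE 0.051, 3.04-fold, adjusted p = 1.63e-19). Psmb9, the least abundant of the 6 catalytic subunits in untreated cells per kilobase, stood at 188, 211, 179 and 196 CPM with zymosan and 287, 267, 271 and 291 CPM with LPS, against 49.8, 51.4, 50.7 and 51.3 CPM untreated. Its groups were again apart in the same order, with rises of 3.81-fold for zymosan (log2 1.93, SE 0.044, adjusted p = 9.26e-22) and 5.49-fold for LPS (log2 2.46, SE 0.045, adjusted p = 5.52e-24). Psmb10 stood at 178, 196, 193 and 208 CPM with zymosan and 358, 330.0, 336 and 363 CPM with LPS, against 55.6, 56.1, 60.2 and 63.3 CPM untreated. All 4 LPS samples were above all 4 zymosan samples, and these above all untreated samples; the rise was 3.29-fold with zymosan (log2 1.72, SE 0.059, adjusted p = 2.01e-18) and 5.89-fold with LPS (log2 2.56, SE 0.061, adjusted p = 6.47e-22). Exons of Psmb9 overlap those of Tap1 on the opposite strand over 212 bases, and exons of Psmb8 overlap the antisense gene Gm20496 over 498 bases; whether the counting used strand is not given in the sources used here, so reads there cannot be assigned with certainty.

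The constitutive partners rose less, by unequal amounts. Psmb5 stood at 152, 140.3, 134 and 136 CPM with zymosan and 163, 155, 148 and 153 CPM with LPS, against 124, 131, 129.8 and 133 CPM untreated. The zymosan samples lay just above the untreated ones, and Psmb5 changed least of the 6 catalytic subunits, 1.09-fold with zymosan (adjusted p = 0.0227) and 1.20-fold with LPS (adjusted p = 1.42e-05). The zymosan call for Psmb5 was lost without WT untreated replicate 1 (adjusted p = 0.0805) or without WT zymosan replicate 1 (0.118) and with replicate pairs summed (0.116). Psmb6 stood at 299.6, 293, 317 and 328 CPM with zymosan and 444, 426, 447 and 447 CPM with LPS, against 145, 152, 169 and 172 CPM untreated. It was the constitutive subunit with the largest rise, 1.94-fold with zymosan (log2 0.96, SE 0.048, adjusted p = 3.90e-15) and 2.77-fold with LPS (log2 1.47, SE 0.049, adjusted p = 3.78e-19), with no overlap between groups. Psmb7 stood at 147, 142, 133 and 135 CPM with zymosan and 149.5, 145, 151 and 152 CPM with LPS, against 89.0, 97.5, 101 and 95.5 CPM untreated. Both stimulated groups were above all untreated samples and overlapped each other; the rise was 1.45-fold with zymosan (adjusted p = 4.34e-11) and 1.56-fold with LPS (adjusted p = 9.64e-13). Exons of Psmb7 overlap those of Nek6 on the opposite strand over 405 bases.

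**Figure D2:**
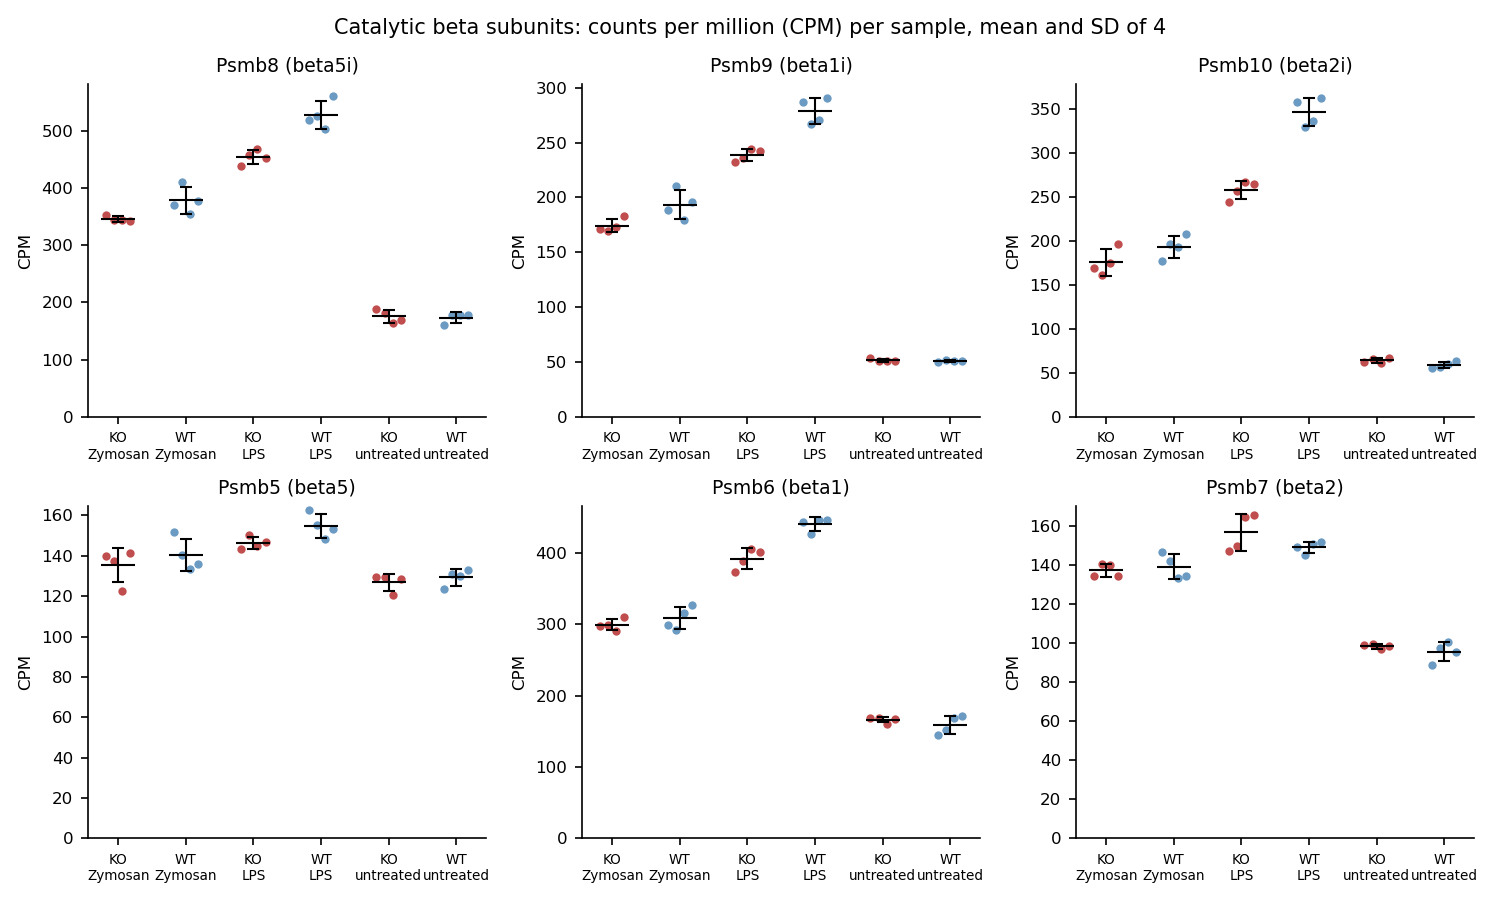
Level in CPM (y axis, from 0) of the 6 catalytic subunits in each of the 24 samples by group, with mean and SD of 4 samples; KO samples are red and WT samples blue. The immunosubunits (upper row) are lowest in both untreated groups and highest in WT LPS samples, while Psmb5 stays between 121 and 163 CPM in all samples.

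The ratio of each immunosubunit to the constitutive subunit it replaces was taken within each library, which removes any scaling of libraries. The ratio of Psmb8 to Psmb5 counts was 2.44, 2.93, 2.66 and 2.77 in WT cells with zymosan and 3.19, 3.39, 3.40 and 3.66 with LPS, against 1.29, 1.36, 1.38 and 1.33 untreated. The ratio of Psmb9 to Psmb6 was 0.628, 0.720, 0.565 and 0.598 with zymosan and 0.646, 0.626, 0.606 and 0.651 with LPS, against 0.343, 0.339, 0.301 and 0.299 untreated. The ratio of Psmb10 to Psmb7 was 1.21, 1.38, 1.44 and 1.54 with zymosan and 2.39, 2.27, 2.23 and 2.39 with LPS, against 0.625, 0.576, 0.597 and 0.663 untreated. All 3 ratios were higher in every stimulated sample than in every untreated sample, which in a two-sided exact permutation test of 4 against 4 gives p = 0.0286, the smallest it can give (0.0429 after Benjamini-Hochberg adjustment over the 27 ratio comparisons). The ratio changed 2.01-fold with zymosan and 2.54-fold with LPS for Psmb8 over Psmb5, 1.96-fold and 1.98-fold for Psmb9 over Psmb6, and 2.26-fold and 3.78-fold for Psmb10 over Psmb7. The ratio of Psmb9 to Psmb6 overlapped between zymosan and LPS in WT cells (log2 difference -0.016, SE 0.078, exact permutation p = 0.857), whereas zymosan samples lay below LPS samples without overlap for the Psmb8 and Psmb10 ratios (log2 -0.34, SE 0.069, and -0.74, SE 0.078; exact permutation p = 0.0286 each, adjusted 0.0429).

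**Figure D3:**
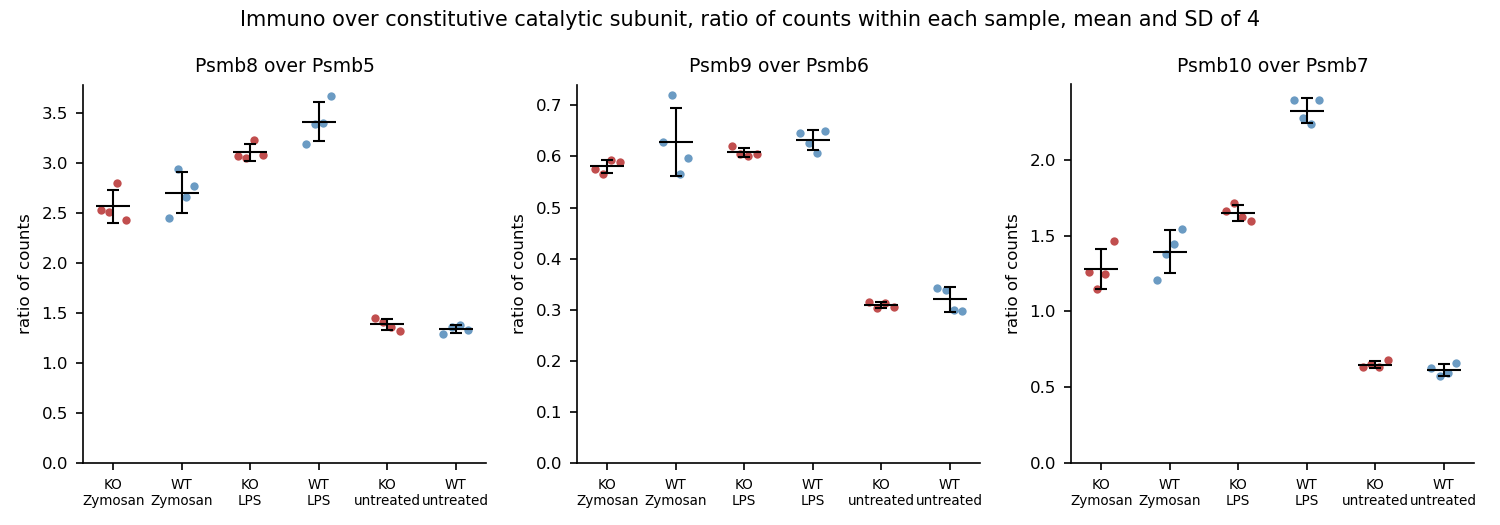
Ratio of counts (y axis, from 0) of each immunosubunit to its constitutive partner within each of the 24 samples, by group, with mean and SD of 4; KO samples are red and WT samples blue. For Psmb10 over Psmb7 the KO LPS samples, at 1.60 to 1.71, lie below the WT LPS samples, at 2.23 to 2.39.

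Per kilobase of merged exons, the immunosubunits made up 41.9% ± 1.04 of the summed level of the 6 catalytic subunits in KO and 43.5% ± 1.61 in WT cells with zymosan, 45.6% ± 0.202 in KO and 49.1% ± 0.799 in WT cells with LPS, and 28.6% ± 0.267 in KO and 28.0% ± 0.0833 in WT untreated cells (SD, n = 4 each). Per kilobase of the longest transcript, the share was 45.4% in KO and 48.3% in WT cells with LPS, and 31.4% in KO and 31.0% in WT untreated cells. These are shares of mRNA and say nothing of assembled particles.

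The immunosubunit and PA28 genes lie at few places in the genome (build mm10, positions from GENCODE M21). Psmb8 (ENSMUSG00000024338, chr17:34197721-34201454, plus strand) and Psmb9 (ENSMUSG00000096727, chr17:34181987-34187764, minus strand) are neighbours in the MHC region. Psmb10 (ENSMUSG00000031897) is at chr8:105935735-105938444 on the minus strand. Psme1 (ENSMUSG00000022216, chr14:55578123-55581529, plus strand) and Psme2 (ENSMUSG00000079197, chr14:55587441-55591113, minus strand) are neighbours on chromosome 14. The promoter windows of 4 genes that rose together are shown, each running from 250 bases before to 50 bases after the gene start in RefSeq (GRCm38.p6), 5′ to 3′ on the gene's strand. The RefSeq starts lie inside the GENCODE spans given above, so the windows of Psmb8, Psmb9 and Psme1 are wholly inside those spans, while that of Psmb10 reaches beyond its span. Capitals mark a match to the GAS motif (interferon-gamma-activated site) TTCNNNGAA or to the interferon-response core, GAAA and GAAA with any 2 bases between them, searched on both strands; no capitals means that these letters do not occur in the window. The windows are chr17:34197945-34198244 (plus strand) for Psmb8, chr17:34187281-34187580 (minus strand) for Psmb9, chr8:105938343-105938642 (minus strand) for Psmb10 and chr14:55578244-55578543 (plus strand) for Psme1.
Psmb8: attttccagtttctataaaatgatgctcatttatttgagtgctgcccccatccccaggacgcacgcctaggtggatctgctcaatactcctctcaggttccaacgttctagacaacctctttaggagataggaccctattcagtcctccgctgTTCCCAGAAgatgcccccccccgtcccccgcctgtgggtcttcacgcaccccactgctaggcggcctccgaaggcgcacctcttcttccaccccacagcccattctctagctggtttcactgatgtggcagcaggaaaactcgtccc
Psmb9: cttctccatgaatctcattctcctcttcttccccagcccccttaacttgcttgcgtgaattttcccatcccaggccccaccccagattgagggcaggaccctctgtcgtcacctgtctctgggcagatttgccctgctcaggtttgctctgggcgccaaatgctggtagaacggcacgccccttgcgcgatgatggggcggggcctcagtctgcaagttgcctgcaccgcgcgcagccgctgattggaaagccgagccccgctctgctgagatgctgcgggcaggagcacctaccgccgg
Psmb10: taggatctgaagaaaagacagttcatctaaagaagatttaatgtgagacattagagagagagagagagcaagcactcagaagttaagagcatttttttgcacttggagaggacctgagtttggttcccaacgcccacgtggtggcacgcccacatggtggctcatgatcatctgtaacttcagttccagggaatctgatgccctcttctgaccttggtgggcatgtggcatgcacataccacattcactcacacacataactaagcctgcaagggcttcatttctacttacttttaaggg
Psme1: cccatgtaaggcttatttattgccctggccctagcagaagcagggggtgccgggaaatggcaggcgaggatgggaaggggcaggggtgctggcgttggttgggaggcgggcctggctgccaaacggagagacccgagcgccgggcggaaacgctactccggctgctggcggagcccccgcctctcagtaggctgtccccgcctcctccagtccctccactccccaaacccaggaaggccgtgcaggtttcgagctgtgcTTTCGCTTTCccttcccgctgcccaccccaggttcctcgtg
The GAS match of Psmb8 starts 97 bases before the RefSeq start, and the interferon-response match of Psme1 starts at base 10 counted from the RefSeq start, on the opposite strand. Psme2, which rose as well, has 2 windows that are not shown, and neither holds a GAS or interferon-response match. Windows were found for 31 of the 37 members. The GAS letters occurred in 2 of these 31 (Psmb8 and Psmd2; 6.45%, against 9.55% of 27025 genes with a window), and the interferon-response core in 3 (Psme1, Psmd4 and Psmb3; 9.68%, against 3.99%). The core of the antioxidant response element, TGACNNNGC, the motif class of NRF1 and NRF2, occurred in 4 (12.9%, against 14.0%), and a loose NF-kappaB pattern, GGG and CC with any 5 bases between them, in 19 (61.3%, against 53.5%), among them Psmb9 and Psme1 but not Psmb8 or Psmb10. The NF-kappaB pattern is not marked in the sequences, and matches of different motifs may overlap. A match is a description of the letters and not a binding site.

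Of the 11S activator, Psme1 and Psme2 rose and Psme3 fell. Psme1 stood at 349, 369, 320.2 and 346 CPM in WT cells with zymosan and 505, 484, 471 and 484 CPM with LPS, against 140.4, 146, 146 and 148 CPM untreated. Psme2 stood at 623, 654, 578 and 604 CPM with zymosan and 876, 868, 864 and 863 CPM with LPS, against 194, 198, 196 and 201 CPM untreated. For both genes the 3 groups were fully apart, with LPS on top. Psme1 rose 2.38-fold with zymosan (log2 1.25, SE 0.048, adjusted p = 1.47e-17) and 3.34-fold with LPS (log2 1.74, SE 0.048, adjusted p = 1.26e-20). Psme2 rose 3.12-fold with zymosan (log2 1.64, SE 0.044, adjusted p = 1.67e-20) and 4.40-fold with LPS (log2 2.14, SE 0.045, adjusted p = 6.54e-23). Psme2b, a near copy of Psme2 with 99.4% identity over 794 aligned bases, held 2.30% as many counts as Psme2, so a small part of the reads may have been shared between them. Psme3 encodes PA28 gamma, a nuclear activator. It stood at 64.4, 68.2, 65.0 and 69.4 CPM with zymosan and 62.0, 66.8, 68.3 and 63.4 CPM with LPS, against 74.9, 75.0, 76.1 and 80.0 CPM untreated. Every stimulated WT sample was below every untreated one, with falls of 1.15-fold for zymosan (log2 -0.20, SE 0.045, adjusted p = 3.64e-04) and 1.17-fold for LPS (log2 -0.23, SE 0.045, adjusted p = 4.73e-05).

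**Figure D4:**
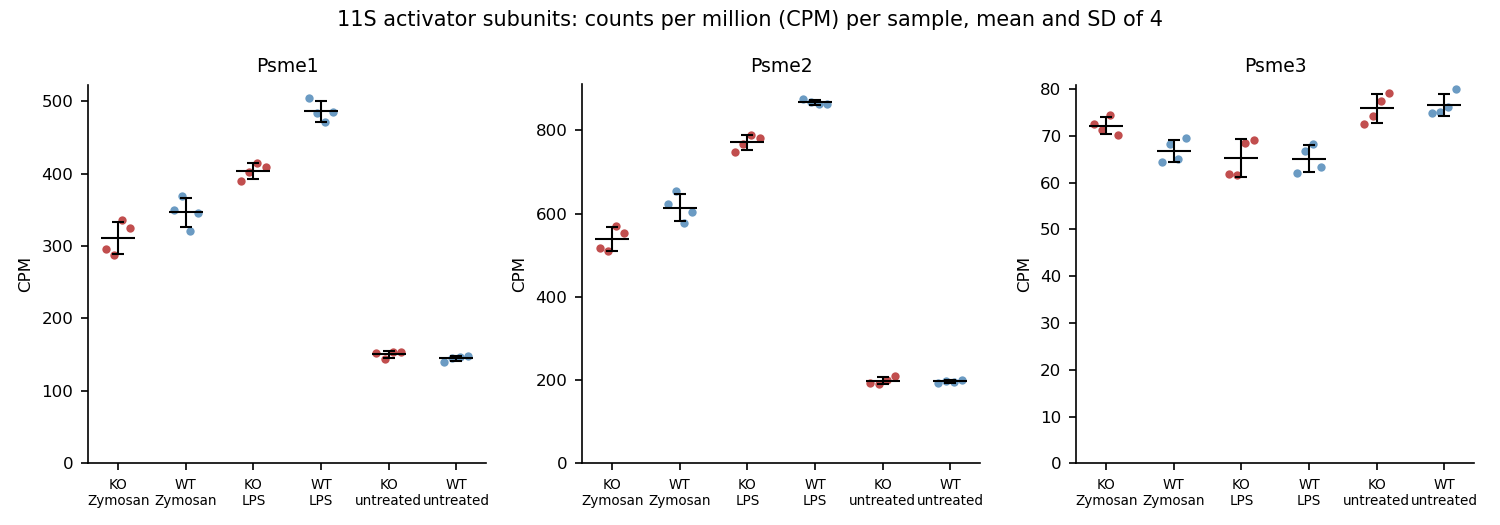
Level in CPM (y axis, from 0) of Psme1, Psme2 and Psme3 in each of the 24 samples by group, with mean and SD of 4; KO samples are red and WT samples blue. Psme1 and Psme2 are highest in WT LPS samples and lowest in the untreated groups, and all 24 Psme3 values lie between 61.6 and 80.0 CPM.

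The remaining core and cap subunits rose by smaller steps. These steps depend on the TMM scaling given above. In the alpha ring 6 of 7 members rose with each stimulus, with median log2 fold changes of 0.60 for zymosan and 0.83 for LPS. Psma5 had the largest rise outside the catalytic and 11S subunits: it stood at 214, 216, 189.6 and 195 CPM with zymosan and 271, 267, 276 and 269.6 CPM with LPS, against 95.5, 107, 103 and 98.9 CPM untreated, with all 3 groups apart. That is a rise of 2.01-fold with zymosan (adjusted p = 1.92e-15) and 2.68-fold with LPS (adjusted p = 1.01e-18). Psma1 was the only member not called with either stimulus, at log2 0.072 (SE 0.05) with zymosan and -0.098 (SE 0.05) with LPS. Psma3 (log2 0.60 with zymosan, 0.83 with LPS) is uncertain, since the pseudogene Gm13835 is identical to it over 665 bases and held 26.2% as many counts. Exons of Psma4, Psma5, Psmc3, Psmd1, Psmd3, Psmd13 and Psme1 overlap a gene on the opposite strand over 14 to 342 bases. All 4 non-catalytic beta subunits rose, with medians of 0.21 and 0.29 for zymosan and LPS; Psmb4 led with 0.55 and 0.74. All 6 ATPases rose, with medians of 0.30 for zymosan and 0.43 for LPS and a highest value of 0.54 for Psmc4 with LPS. All 11 other 19S subunits rose, with medians of 0.28 and 0.37. The highest of them were Psmd8 with zymosan (0.71) and Psmd11, a scaffold of the 19S lid, with LPS (0.87). The ubiquitin receptor Psmd4 had 0.34 and 0.55, and the deubiquitinase Psmd14 had 0.28 and 0.26, each for zymosan and LPS. Psma1, Psma3, Psmb4, Psmc4 and the 4 Psmd genes named here were chosen after their values were seen.

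Zymosan and LPS were also compared directly. In WT cells zymosan gave lower levels than LPS for 22 of 37 members and higher levels for 2 (Psma1 and Psmc6), where 46.4% of all genes tested were called, 24.5% higher and 21.9% lower with zymosan. Psmb10 differed most, by log2 -0.84 (SE 0.057, 1.79-fold lower with zymosan, edgeR adjusted p = 2.12e-11), followed by Psmb9 at -0.53 (SE 0.042), Psmb6 at -0.51 (SE 0.048), Psme2 at -0.50 (SE 0.043), Psme1 at -0.49 (SE 0.047) and Psmb8 at -0.48 (SE 0.05). In KO cells 28 members were lower with zymosan and 1 was higher (Psme3), where 42.7% of all genes were called, 22.7% higher and 20% lower. With replicate pairs summed 16 members were called, all lower, and the share of all genes called in that fit is not given. Doses and times of the 2 stimuli are not given, so the difference describes these treatments and not the stimuli at matched strength.

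Most members rose with both stimuli in KO cells as well. The TMM factors followed the stimulus in KO cells too, so small rises depend on the scaling there as well. With zymosan, 33 of 37 members were higher than in untreated KO cells and none was lower, where 66.8% of all genes were called, 31.6% higher and 35.2% lower; Psma1, Psmb5, Psmc5 and Psme3 were not called. With LPS, 35 were higher and 1 lower (Psme3), where 71.8% of all genes were called, 34.4% higher and 37.4% lower. Psmb8 stood at 353, 344, 344 and 343 CPM in KO cells with zymosan and 439, 458, 469 and 452 CPM with LPS, against 188, 182, 164 and 170.0 CPM untreated. Psmb9 stood at 171, 169.5, 173 and 183 CPM with zymosan and 232, 236, 244 and 243 CPM with LPS, against 53.4, 51.2, 50.5 and 51.1 CPM untreated. Psmb10 stood at 169.5, 161, 175 and 197 CPM with zymosan and 245, 256, 267 and 265 CPM with LPS, against 62.5, 65.4, 61.5 and 66.9 CPM untreated. As in WT cells, LPS samples were on top and untreated samples lowest, with no overlap. In KO cells the log2 fold changes with zymosan and LPS were 0.97 and 1.37 for Psmb8, 1.76 and 2.21 for Psmb9, and 1.46 and 2.01 for Psmb10 (SE at most 0.06). Psmb5 stood at 139.7, 137, 123 and 141 CPM with zymosan and 143, 150.3, 145 and 147 CPM with LPS, against 129.7, 129, 121 and 128 CPM untreated. Its zymosan samples overlapped the untreated ones (log2 0.092, SE 0.046, adjusted p = 0.0791, or 0.0448 with the replicate number as a block), and its LPS samples lay above them (log2 0.20, SE 0.046, adjusted p = 2.88e-04). Psmb6 stood at 298, 299, 291 and 309.9 CPM with zymosan and 374, 389, 406 and 401 CPM with LPS, against 169, 168, 161 and 167 CPM untreated. Psmb7 stood at 134, 140.4, 140.3 and 134 CPM with zymosan and 147, 149.7, 164 and 166 CPM with LPS, against 99.0, 99.8, 96.9 and 98.3 CPM untreated. Both rose with both stimuli, Psmb6 by 1.80-fold and 2.36-fold and Psmb7 by 1.40-fold and 1.59-fold for zymosan and LPS. Psme1 stood at 296, 288, 335 and 324 CPM with zymosan and 389.7, 402, 415 and 409 CPM with LPS, against 152, 143, 153 and 154 CPM untreated. Psme2 stood at 517, 511, 571 and 553 CPM with zymosan and 747, 768, 789.5 and 781 CPM with LPS, against 193, 190.4, 201 and 211 CPM untreated. The groups of both were apart, with log2 rises of 1.04 with zymosan and 1.42 with LPS for Psme1, and of 1.44 and 1.96 for Psme2. Psme3 stood at 72.5, 71.2, 74.4 and 70.2 CPM with zymosan and 61.8, 61.6, 68.4 and 69.1 CPM with LPS, against 72.5, 74.2, 77.4 and 79.2 CPM untreated. It fell with LPS (log2 -0.22, SE 0.044, adjusted p = 1.08e-04), while with zymosan its samples overlapped the untreated ones (log2 -0.073, adjusted p = 0.150). In KO cells the ratio of Psmb8 to Psmb5 was 2.52, 2.51, 2.80 and 2.42 with zymosan and 3.07, 3.05, 3.23 and 3.08 with LPS, against 1.45, 1.41, 1.36 and 1.32 untreated. The ratio of Psmb9 to Psmb6 was 0.576, 0.566, 0.594 and 0.590 with zymosan and 0.621, 0.606, 0.601 and 0.605 with LPS, against 0.316, 0.304, 0.314 and 0.306 untreated. The ratio of Psmb10 to Psmb7 was 1.26, 1.15, 1.25 and 1.47 with zymosan and 1.66, 1.71, 1.62 and 1.60 with LPS, against 0.631, 0.656, 0.635 and 0.680 untreated. The changes were 1.85-fold and 2.24-fold for Psmb8 over Psmb5, 1.88-fold and 1.96-fold for Psmb9 over Psmb6, and 1.96-fold and 2.54-fold for Psmb10 over Psmb7, all without overlap (exact permutation p = 0.0286, adjusted 0.0429). Markers of other cells moved with the stimuli in KO cells too. With each stimulus 4 of 8 macrophage markers were higher and 3 lower, with summed levels of 2402 to 2692 CPM with zymosan and 2063 to 2155 CPM with LPS, against 2108 to 2326 CPM untreated. With zymosan 3 of 5 eosinophil markers tested were higher and 1 lower. The summed level of the eosinophil list did not rise, at 25.8 to 28.8 CPM with zymosan against 27.5 to 31.0 CPM untreated. With LPS 5 of 10 neutrophil markers were higher and 1 lower, and 5 of 7 mast cell and basophil markers were higher and none lower. Their part in the members' changes was not tested.

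Without stimulus the genotype label made no called difference to any member. In untreated cells 0 of 37 members were called between KO and WT, by edgeR and by DESeq2, where 9.95% of all genes tested were called in edgeR, 4.31% higher and 5.64% lower; 2 members had an unadjusted p under 0.05 in each tool. The largest differences were 0.13 (log2, SE 0.049) for Psmd8 and 0.12 (SE 0.059) for Psmb10, with adjusted p = 0.101 and 0.229. A p above the threshold does not show equal levels. With replicates 1 and 2 alone, 5 members were called in untreated cells, 4 of them higher in KO. The share of all genes called in that fit is not given.

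With LPS, 7 of 37 members were lower in KO than in WT cells and 1 was higher, where 33.9% of all genes tested were called, 15.6% higher and 18.2% lower in KO. The 7 were all 3 immunosubunits, Psme1, Psme2, Psmb6 and the 19S subunit Psmd7; the alpha-ring subunit Psma7 was higher. Psmb10 stood at 245, 256, 267 and 265 CPM in KO and 358, 330.0, 336 and 363 CPM in WT cells with LPS, with no overlap, 1.34-fold lower in KO (log2 -0.42, SE 0.057, edgeR adjusted p = 3.16e-06). Psme1 stood at 389.7, 402, 415 and 409 CPM in KO and 505, 484, 471 and 484 CPM in WT cells, again without overlap, 1.20-fold lower in KO (log2 -0.27, SE 0.047, adjusted p = 9.90e-05). Psmb9 stood at 232, 236, 244 and 243 CPM in KO and 287, 267, 271 and 291 CPM in WT cells (log2 -0.22, SE 0.042, adjusted p = 2.03e-04). These 3 genes were also the only members called when replicate pairs were summed. For the other 5 the samples of the 2 genotypes were apart as well, but summing the pairs ended the call. Psmb8 differed by log2 -0.21 (SE 0.05, adjusted p = 0.00161, 0.0654 with pairs summed). Psme2 stood at 747, 768, 789.5 and 781 CPM in KO and 876, 868, 864 and 863 CPM in WT cells (log2 -0.17, adjusted p = 0.00323, 0.144 with pairs summed). Psmb6 differed by log2 -0.17 (SE 0.048, adjusted p = 0.00791, 0.172 with pairs summed). Psmd7, part of the 19S lid, stood at 77.5, 76.2, 89.3 and 86.6 CPM in KO and 89.8, 91.2, 92.4 and 91.1 CPM in WT cells (log2 -0.15, SE 0.051, adjusted p = 0.0304). In Psmd7, KO replicates 1 and 2 lay well below KO replicates 3 and 4, and leaving out KO LPS replicate 1 or 2, or WT LPS replicate 2, 3 or 4, ended the call (adjusted p between 0.0561 and 0.131). Psma7 stood at 192, 205, 209 and 208 CPM in KO and 187, 181, 184 and 186 CPM in WT cells (log2 0.14, SE 0.046, adjusted p = 0.0198); its call ended without KO LPS replicate 3 or 4 or WT LPS replicate 2 (adjusted p between 0.0504 and 0.0546). Over all 37 members the median difference was -0.012, against 0.0075 over all genes tested. With LPS the TMM factors were 0.930 to 0.983 in KO and 0.880 to 0.916 in WT samples, without overlap. This scaling lowers levels in KO against those in WT samples, so the smaller differences between genotypes depend on it. Beside these results, all 8 macrophage markers were lower in KO cells with LPS, with summed levels of 2063 to 2155 CPM in KO and 2989 to 3168 CPM in WT, and all 5 eosinophil markers tested were lower, with summed levels over the list of 20.2 to 25.5 CPM in KO and 796 to 857 CPM in WT; no marker of either list was at 0 in all samples. Other lists were higher in KO with LPS in their summed level: 1596 to 1788 CPM in KO and 1276 to 1369 CPM in WT for 10 neutrophil markers (4 called higher, 3 lower), 7821 to 8334 CPM in KO and 7171 to 7784 CPM in WT for the dendritic cell markers (5 of 9 tested higher, 1 lower), and 35.1 to 38.3 CPM in KO and 28.6 to 33.2 CPM in WT for 7 mast cell and basophil markers (2 higher, 1 lower). The part of these markers in the result was not tested.

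With zymosan, 4 of 37 members were lower in KO than in WT cells and none was higher, where 22.1% of all genes tested were called, 10.6% higher and 11.4% lower. Psme2 stood at 517, 511, 571 and 553 CPM in KO and 623, 654, 578 and 604 CPM in WT cells with zymosan, without overlap (log2 -0.19, SE 0.043, adjusted p = 0.00176). Psme1 stood at 296, 288, 335 and 324 CPM in KO and 349, 369, 320.2 and 346 CPM in WT cells, with overlap (log2 -0.16, SE 0.047, adjusted p = 0.0189). KO replicates 1 and 2 were the low ones for both genes. Psmb9 differed by log2 -0.15 (SE 0.042, adjusted p = 0.0110), with overlap between the genotypes. Psma6 stood at 305, 308, 318 and 289 CPM in KO and 369, 373, 309 and 318 CPM in WT cells (log2 -0.17, SE 0.058, adjusted p = 0.0396). In Psma6 the WT replicates 1 and 2 stood above the other WT samples. The genotypes overlapped, since KO replicate 3, at 317.8 CPM, lay above WT replicate 3, at 309.1 CPM, and just below WT replicate 4, at 318.1 CPM. The Psma6 call ended without WT zymosan replicate 1 or 2 or KO zymosan replicate 1, 2 or 4 (adjusted p between 0.0708 and 0.165), that for Psme1 without KO zymosan replicate 1 or 2 or WT zymosan replicate 2 (between 0.0788 and 0.0968), and that for Psmb9 without WT zymosan replicate 2 (0.0701). With replicate pairs summed, or with replicates 3 and 4 alone, 0 of the 37 were called in edgeR (3 had an unadjusted p under 0.05 in each setting), whereas with replicates 1 and 2 alone 20 were called, 18 of them lower in KO. The count also fell to 1 without WT zymosan replicate 2 and to 2 without KO zymosan replicate 1 or 2, and was 7 with the replicate number as a block, 6 of them lower. The share of all genes called in each of these other fits is not given, so their counts do not set the members apart from all genes. Psmb8 and Psmb10 had differences of -0.13 and -0.14 (log2, adjusted p = 0.0619 and 0.0839). Of the macrophage markers 5 of 8 were lower in KO cells with zymosan, with summed levels of 2402 to 2692 CPM in KO and 3128 to 3293 CPM in WT, and 4 of 5 eosinophil markers tested were lower, with 25.8 to 28.8 CPM in KO and 759 to 1118 CPM in WT. Of 10 neutrophil markers 4 were lower and none was higher, and of 9 dendritic cell markers tested 4 were higher and 2 lower. Their part in the result was not tested.

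**Figure D5:**
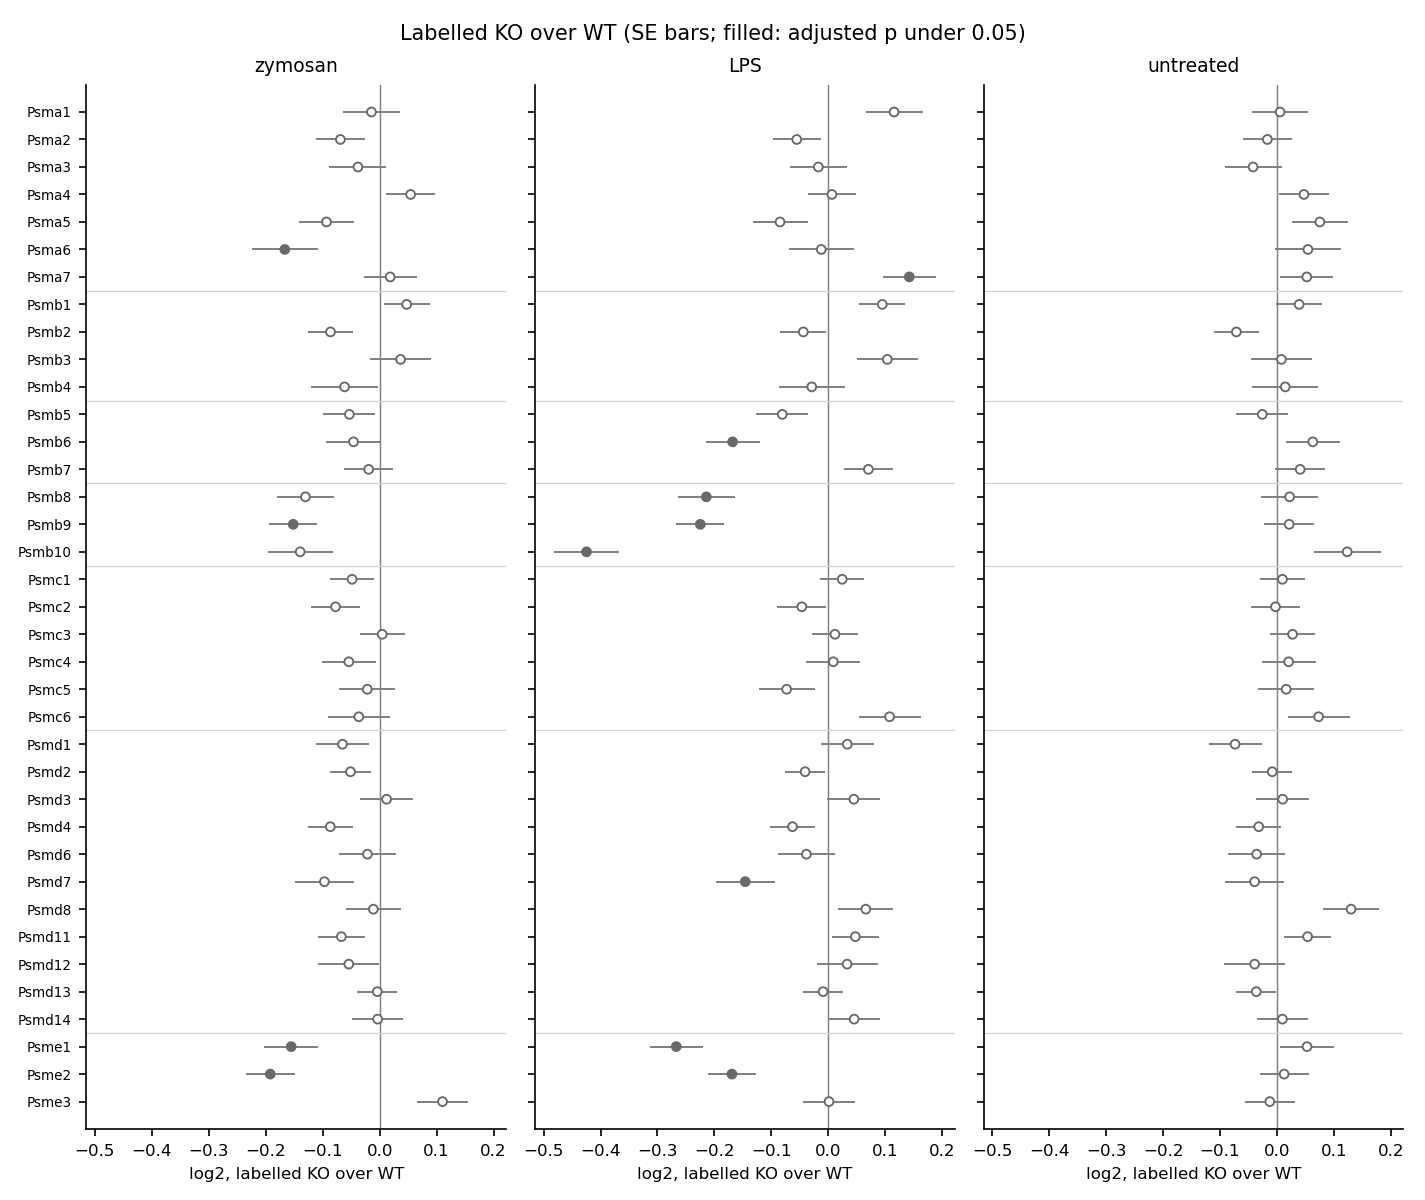
Log2 difference, labelled KO over WT, of each of the 37 members with zymosan (left), LPS (middle) and untreated (right), with SE bars from the edgeR fit to 24 samples; filled circles have an adjusted p under 0.05. With LPS, Psmb10 lies farthest left at -0.42; in untreated cells no circle is filled.

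Between genotypes, the ratio of Psmb10 to Psmb7 was the only one of the 3 that was apart in a condition. With LPS it was 1.66, 1.71, 1.62 and 1.60 in KO and 2.39, 2.27, 2.23 and 2.39 in WT cells, so the KO ratio was 0.711 of the WT ratio (log2 -0.49, SE 0.034, two-sided exact permutation p = 0.0286, adjusted 0.0429). Psmb7 itself stood at 147, 149.7, 164 and 166 CPM in KO and 149.5, 145, 151 and 152 CPM in WT cells and was not called (log2 0.07, adjusted p = 0.224). The ratio of Psmb8 to Psmb5 with LPS was 3.07, 3.05, 3.23 and 3.08 in KO and 3.19, 3.39, 3.40 and 3.66 in WT cells (log2 -0.13, exact permutation p = 0.0571), and that of Psmb9 to Psmb6 was 0.621, 0.606, 0.601 and 0.605 in KO and 0.646, 0.626, 0.606 and 0.651 in WT cells (log2 -0.056, exact permutation p = 0.0571). With zymosan and in untreated cells the samples of the 2 genotypes overlapped for all 3 ratios.

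Whether the response itself differed between genotypes was tested as an interaction, the log2 response in KO minus that in WT. For LPS, 5 of 37 members had a smaller response in KO and none a larger one, where 10.4% of all genes tested were called, 4.61% higher and 5.84% lower. The interaction was -0.55 for Psmb10 (SE 0.082, edgeR adjusted p = 1.93e-04), which rose 4.03-fold in KO and 5.89-fold in WT cells. For Psme1 it was -0.32 (SE 0.067, adjusted p = 0.00333), with rises of 2.68-fold in KO and 3.34-fold in WT. For Psmb9 it was -0.25 (SE 0.061, adjusted p = 0.0104), with rises of 4.63-fold in KO and 5.49-fold in WT. The values for Psmb6 (-0.23, adjusted p = 0.0289) and Psmb8 (-0.24, adjusted p = 0.0318) were close to the threshold: leaving out WT untreated replicate 1, WT LPS replicate 4, or KO LPS replicate 1 or 2 ended both calls and left 3. Leaving out WT untreated replicate 2 or WT LPS replicate 3 ended the call for Psmb6 alone (adjusted p = 0.0706 and 0.0524), and leaving out KO untreated replicate 1 or 2 ended that for Psmb8 alone (0.0676 and 0.0594). Psme2 had -0.18 (adjusted p = 0.0551). Since the TMM factors of KO and WT samples were apart with LPS, the smaller values of this interaction depend on the scaling too. With replicate pairs summed, 0 members were called (4 had an unadjusted p under 0.05) and 5 genes of 15378 in all; the size for Psmb10 was -0.55, with an adjusted p of 0.132. For zymosan, edgeR called 0 members (8 had an unadjusted p under 0.05), DESeq2 called 1, leaving out KO zymosan replicate 3 gave 2 calls and leaving out WT zymosan replicate 3 or KO zymosan replicate 4 gave 1, and 1.82% of all genes were called in edgeR, 0.973% higher and 0.846% lower; the largest value was -0.26 for Psmb10 (SE 0.082, adjusted p = 0.109). Of the 8 macrophage markers, 7 were lower in the LPS interaction too and 1 was not called; their part in the result was not tested.

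Other genes of the pathway were followed from lists of assembly factors, proteasome-associated proteins, transcription factors of proteasome genes, and peptide transport and trimming genes. Their counts stand beside 70.2% of all genes tested called with zymosan (34.3% higher, 35.9% lower) and 75.6% with LPS (35.9% higher, 39.7% lower) in WT cells. Of 8 assembly factors measured, 3 rose and 3 fell with zymosan in WT cells, and 4 rose and 3 fell with LPS. Psmd10, also called gankyrin, a chaperone of the 19S base, rose by log2 1.10 with zymosan and 1.29 with LPS, while the core chaperone Psmg1 fell with LPS (log2 -1.26) and its partner Psmg2 with zymosan (log2 -1.03). Psmg1 stood at 9.12, 9.06, 7.27 and 7.22 CPM with zymosan and 7.19, 6.88, 6.03 and 5.68 CPM with LPS, against 14.8, 15.7, 16.3 and 14.7 CPM untreated. Psmg2 stood at 4.85, 4.33, 4.95 and 4.27 CPM with zymosan and 4.73, 3.61, 4.40 and 4.57 CPM with LPS, against 8.76, 10.6, 9.10 and 9.02 CPM untreated. For both Psmg1 and Psmg2 every stimulated WT sample lay below every untreated one, the reverse of the order in the immunosubunits. Of 14 proteasome-associated genes, 6 rose and 3 fell with zymosan, and 6 rose and 4 fell with LPS. Psme4, the PA200 activator, rose by 0.79 and 0.91 for zymosan and LPS, and the 19S-bound deubiquitinase Uchl5 fell (log2 -0.58 with zymosan and -0.61 with LPS). Of 8 genes for transcription of proteasome genes, 6 rose and 2 fell with zymosan, and 5 rose and 2 fell with LPS. Among them Irf1, an interferon regulatory factor, rose by log2 1.95 with zymosan and 2.31 with LPS. All 7 peptide transport and trimming genes rose with both stimuli; Nlrc5, the transactivator of MHC class I genes, rose by 2.98 with zymosan and 3.47 with LPS, and Tap1, a subunit of the peptide transporter, by 2.09 and 2.65. Of the tissue-restricted subunits, the thymic Psmb11 was below the filter and Psma8, known from testis, fell (log2 -1.36 with zymosan, -1.83 with LPS) at 0.359 to 2.51 CPM in WT samples.

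Between genotypes with LPS, where 33.9% of all genes tested were called, 4 of 7 peptide transport and trimming genes were lower in KO than in WT cells and none was higher, among them Tap1 (481, 494, 535 and 538 CPM in KO, 647, 606, 641 and 691 CPM in WT; log2 -0.34, SE 0.051, edgeR adjusted p = 1.64e-05) and Tap2 (log2 -0.30, SE 0.042, adjusted p = 5.22e-06). With replicate pairs summed both remained called (adjusted p = 0.0163 for Tap1 and 0.0108 for Tap2). The samples of the 2 genotypes did not overlap for Tap1. Of the transcription factors, 3 of 8 were lower and 1 was higher, with Stat3 at -0.33 (adjusted p = 5.67e-06) and Irf1 at -0.27 (adjusted p = 7.30e-04); with pairs summed both remained called (0.00956 for Stat3 and 0.0431 for Irf1). Among assembly factors, Psmd5 was higher (log2 0.19, adjusted p = 3.27e-04) and Psmg4 lower (-0.22, adjusted p = 0.0357) in KO cells. Summing the pairs kept the call for Psmd5 (0.0353) and ended that for Psmg4 (0.159), which also ended without WT LPS replicate 1 or 3 or KO LPS replicate 2 or 4 (adjusted p between 0.0586 and 0.112). With zymosan, where 22.1% of all genes were called, Stat3 was also lower in KO (log2 -0.31, adjusted p = 2.91e-05, 0.0201 with pairs summed). The core chaperone Psmg2 was higher (log2 0.34, adjusted p = 0.00415), a call that ended with pairs summed (0.0514). In the LPS interaction, where 10.4% of all genes were called, 3 of the 7 transport and trimming genes were lower, among them Lap3, a leucine aminopeptidase (-0.36, adjusted p = 0.0335), and Tap2 (-0.34, adjusted p = 0.00102). Both interaction calls ended with pairs summed (adjusted p = 0.410 for Lap3 and 0.202 for Tap2). The call for Lap3 also ended without WT untreated replicate 1 or 2, WT LPS replicate 3 or 4, KO untreated replicate 3 or 4, or KO LPS replicate 1 or 2 (adjusted p between 0.0628 and 0.0807). The shift of the macrophage and eosinophil markers given above stood beside these differences as well, and its part in them was not tested. The smaller differences with LPS depend on the TMM scaling here too.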

How the data were processed

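Messenger RNA of 24 samples of mouse bone marrow-derived dendritic cells in 6 groups of 4 was measured by sequencing; groups come from the sample labels, whose titles speak of treated mice and whose protocol speaks of stimulated cultured cells. The deposited table holds whole-number counts per gene. The submitters' processing notes name the build mm10 and the tools RSEM 1.2.31, DESeq2 and Bowtie2, with no role or order; whether the counts are rounded RSEM estimates, and whether strand was used, is not given in the sources used here. RSEM can share reads between near-identical genes. The counts were used unchanged. Gene IDs were matched to GENCODE M21 for symbols, positions and lengths.

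Genes were kept with edgeR 4.0.16 (filterByExpr, 14188 of 38887), scaled by TMM (factors 0.880 to 1.19), and fitted over all 24 samples with 1 mean per group by the quasi-likelihood method in R 4.3.3 (common biological coefficient of variation 0.0686), with Benjamini-Hochberg adjustment over all genes tested and a threshold of 0.05. The spread between samples sets the precision at 32223256 to 46927434 counts per sample. Fold changes put KO over WT, stimulus over untreated and zymosan over LPS. The interaction is the response in KO minus that in WT. Ratios between partner subunits were tested by two-sided exact permutation of log2 count ratios, 27 tests in all. The fit was checked on simulated counts with known changes.

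The alternatives were DESeq2 1.42.0, its size factors, no filter on low counts, fits of only the groups compared, the replicate number as a block, replicate pairs 1 with 2 and 3 with 4 summed or taken alone, and leaving out each sample. The deviations of same-numbered samples had a correlation over genes above 0.1 in all 4 pairs only for zymosan against untreated (0.151 to 0.247 in WT and 0.125 to 0.205 in KO); this is a hint from the data, since no label says that a number marks a shared mouse, culture or day.

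Values in every sample are printed for Psmb5 to Psmb10 and Psme1 to Psme3, for the member with the largest rise and fall among the other called members in each comparison with untreated WT cells or between genotypes, and for members called in an interaction; of each other pathway list, up to 2 called genes with the largest change per comparison are named. The members and lists were chosen with earlier results of these data known. Paaf1 of the assembly list had no match by symbol and was not used, and 1 gene that the naming rule gives is not reported here. Promoter windows were read from RefSeq sequences of GRCm38.p6.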

Additional observations from a re-analysis of the deposited data

Results flagged for a closer look

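In 13 of 222 groups of 4 samples (37 members in 6 groups), or 5.86%, 1 sample stood apart from the other 3 by Dixon's test, where chance alone flags about 1 in 20 groups. With zymosan, KO replicate 1 was the highest for Psmb8, at 352.7 CPM against 342.6 to 344.2 CPM in the other 3, and for Psmd4, at 91.45 CPM against 87.78 to 88.14 CPM. With LPS, KO replicate 1 was the lowest for Psmb3, at 101.1 CPM against 108.6 to 110.1 CPM, and for Psmb4, at 212.7 CPM against 226.8 to 229.2 CPM. In WT cells with LPS, replicate 2 was the highest for Psma4 (317.2 CPM against 313.7 to 313.9 CPM) and the lowest for Psmb6 (426.4 CPM against 444.0 to 447.1 CPM), replicate 1 was the lowest for Psmd4 (105.6 CPM against 110.5 to 110.7 CPM), and replicate 3 was the highest for Psmd12 (79.45 CPM against 76.97 to 77.34 CPM). In untreated KO cells, replicate 3 was the lowest for Psmb5 (120.7 CPM against 128.3 to 129.7 CPM) and Psmd3 (65.39 CPM against 69.49 to 70.02 CPM), and replicate 2 was the lowest for Psme1 (143.4 CPM against 152.4 to 154.0 CPM). In untreated WT cells, replicate 1 was the lowest for Psmb4 (122.3 CPM against 140.8 to 143.8 CPM) and Psmb8 (159.8 CPM against 177.3 to 178.8 CPM).

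The response to LPS differed between KO and WT cells for 5 members by the interaction term, each with the smaller rise in KO: -0.548 for Psmb10, -0.3199 for Psme1, -0.2462 for Psmb9, -0.2365 for Psmb8 and -0.2311 for Psmb6 (log2, adjusted p = 1.93e-04, 0.00333, 0.0104, 0.0318 and 0.0289 in edgeR's quasi-likelihood test). In the same interaction 10.4% of all genes tested were called, 4.61% higher and 5.84% lower. All 5 members kept their sign in every alternative run, and none was called with replicate pairs summed. The smaller values depend on the TMM scaling, whose factors were apart between genotypes with LPS.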

How the results depend on the processing

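The tests compare 4 samples with 4, and nothing in the labels says that the samples are independent. Of 141 gene results that were called or printed, no called one changed sign: of their 2444 alternatives, 2305 kept direction and side of the threshold, 108 lost the call, 30 gained one and 1 changed sign, that of Psma1 for zymosan against untreated in WT cells, which was not called and had log2 -0.029 with replicates 3 and 4 alone. Of the 53 uncalled results of the members named by the rule, 23 changed sign in some alternative. The counts of members called with each stimulus against untreated stayed within 33 to 36 for zymosan and 35 to 36 for LPS in WT cells, and 31 to 34 and 36 in KO cells, when each sample was left out. The cause of the changes below was not tested.

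For KO against WT with zymosan, the 4 calls became 1 in a fit of only these groups, 0 with replicate pairs summed or replicates 3 and 4 alone (3 at an unadjusted p under 0.05 in edgeR each), 20 with replicates 1 and 2 alone, and 1 to 5 with a sample left out. For KO against WT with LPS, the 8 calls became 3 with pairs summed, 14 with replicates 1 and 2 alone, and 6 to 8 with a sample left out. In untreated cells the 0 calls in edgeR became 5 with replicates 1 and 2 alone, and stayed 0 with each sample left out. The 5 calls of the LPS interaction became 3 without the filter on low counts or with replicates 3 and 4 alone, 0 with pairs summed, and 3 to 5 with a sample left out. The 0 calls of the zymosan interaction became 1 in DESeq2, 10 with replicates 1 and 2 alone, and 0 to 2 with a sample left out. Zymosan against LPS in KO cells gave 16 calls with pairs summed, against 29. The share of all genes called in each of these other fits is not given, so the counts do not set the members apart from all genes.

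With the replicate number as a block, KO against WT with zymosan had 7 calls (1 higher, 6 lower) and the zymosan interaction 1, or 3 with the block nested in genotype; the other counts stayed within 1.5 times. In the zymosan responses, where all 4 same-numbered pairs had a correlation over 0.1, a hint from the data, the block gave 36 calls in WT and 35 in KO cells, and among the genes with printed values it changed only the call for Psmb5 in KO. Samples correlated best with their own number in 1 to 3 of 4 pairs in every comparison, 3 in the WT and 2 in the KO zymosan response.

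Of 324 alternatives of the 27 ratio results, 16 moved by more than the spread between replicates, all with replicates 1 and 2 alone or 3 and 4 alone. In log2, and in that order, Psmb8 over Psmb5 had 1.10 and 1.24 for LPS against untreated in KO, and 0.11 and -0.016 for KO against WT untreated. Psmb9 over Psmb6 had 0.90 and 1.07 for LPS against untreated in WT, -0.10 and -0.027 for zymosan against LPS in KO, -0.14 and 0.049 for KO against WT untreated, and -0.24 and 0.026 for KO against WT with zymosan. Psmb10 over Psmb7 had 1.39 and 1.29 for LPS against untreated in KO and -0.49 and -0.25 for zymosan against LPS in KO.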
